A study of Rattus norvegicus with 2 samples.

Results

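Transcripts of the receptors for lysophosphatidic acid (LPA) and sphingosine 1-phosphate (S1P), together with the S1P-forming kinase Sphk1, were compared between 2 cultures of rat astrocytes. The 10 genes were Lpar1, Lpar2, Lpar3, Lpar4 and Lpar6, S1pr1, S1pr2, S1pr3 and S1pr5, and Sphk1, a list chosen by family and found through the platform's gene annotation. They were read by 13 of the array's 31099 probe sets, and they were 10 of the 14218 genes with a probe set of their own. The 5ppase culture expressed 5ppase together with a red fluorescent protein from a bicistronic construct, written 5ppase-IRES2-RFP in the description and 55ppase-IRES-RFP in the transfection label. The control culture expressed the fluorescent protein from IRES2-RFP alone. Both were hippocampal astrocytes of Sprague-Dawley rats at embryonic day 18 with a genotype labelled normal, and each gave RNA for 1 single-colour Affymetrix array. The series describes calcium signalling as active in control and as missing in 5ppase. The labels do not spell out 5ppase, a name usually read as inositol phosphate 5-phosphatase. The promoter of the construct, the share of cells that carried it and the number of animals pooled are not stated in the sources used.

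LPA and S1P are signalling lipids that circulate outside cells and act through families of G protein-coupled receptors. Depending on the receptor they engage Gi, Gq or G12/13 proteins. The Gq branch activates phospholipase C, which makes inositol trisphosphate and so releases calcium from the endoplasmic reticulum, and an inositol phosphate 5-phosphatase removes that messenger downstream of the receptors. The G12/13 branch acts on the actin cytoskeleton and, through it, on transcription by SRF and YAP. Astrocytes are known to respond to both lipids with calcium signals, proliferation and changes of shape.

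With 1 array per group no test was possible, no p-value was computed, and every value below describes these 2 arrays. The 10 genes were also selected on this same contrast, with the ratios of 5ppase over control already known, so their differences are given as a description. Signals are MAS5 intensities on a linear scale, and log2 ratios are 5ppase over control. A gene was compared where 2 conditions held for its brightest probe set. The signal had to exceed a floor of 62.0 on each array, which is the pooled 40th percentile, and to reach a brightness limit of 208, the pooled 60th percentile, on either one. Signals ran from 0.2 to 49734 on the 5ppase array and from 0.1 to 43892 on the control array, with medians of 109 and 107. Inpp5a, a rat gene for such a phosphatase, read 1023 in 5ppase and 994 in control, which does not check the labels because they name neither the gene nor the species of the construct. For the control transcripts of beta-actin, GAPDH and hexokinase, the log2 ratios at the 5′ and 3′ ends differed by 0.0064 to 0.13. Such small gaps show that the arrays were alike in end bias, not that either RNA was intact. Among 1881 genes with a second compared probe set, the ratios of the 2 probe sets of a gene differed with an SD of 0.26 per probe set on the log2 scale. That SD covers probe noise and no difference between cultures, and having so few arrays limits the precision of every value.

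The largest differences belonged to single genes, not to either receptor family as a whole, and lay in opposite directions. S1pr3 and S1pr1 had lower signals in the 5ppase culture, by 2.73-fold and 1.98-fold, whereas Lpar1 had a signal 3.25-fold higher. The second Lpar1 probe set read 2.03-fold higher and was too dim to be compared, and the filter admitted Lpar1 only past 2-fold. The other compared genes, S1pr2, Lpar6 and Sphk1, lay within 1.5-fold. Of all 8261 compared genes 2.92% were at least 2-fold apart, 10.7% were at least 1.5-fold apart and 89.3% lay closer. Lpar2, Lpar3, Lpar4 and S1pr5 were too dim to be compared.

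Rat promoter sequences of the S1P receptors are shown for S1pr3 and S1pr1, the pair with lower signals in 5ppase, and for S1pr2, which did not share the difference. Each is the 250 bases before the annotated start in RefSeq, assembly GRCr8, read 5′ to 3′ on the gene's strand, and capitals mark matches to the motifs named after them.
S1pr3 (chr17:13946014-13946263, minus strand): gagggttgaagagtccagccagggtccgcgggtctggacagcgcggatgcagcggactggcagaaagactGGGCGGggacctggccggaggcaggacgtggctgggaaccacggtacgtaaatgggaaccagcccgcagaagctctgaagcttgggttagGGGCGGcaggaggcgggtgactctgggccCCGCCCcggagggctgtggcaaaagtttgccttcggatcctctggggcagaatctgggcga
S1pr1 (chr2:206314071-206314320, minus strand): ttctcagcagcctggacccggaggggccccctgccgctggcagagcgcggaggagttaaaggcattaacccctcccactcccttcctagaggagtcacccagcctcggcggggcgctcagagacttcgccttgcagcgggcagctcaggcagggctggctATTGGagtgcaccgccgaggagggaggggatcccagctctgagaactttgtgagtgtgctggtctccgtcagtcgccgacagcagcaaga
S1pr2 (chr8:27790345-27790594, minus strand): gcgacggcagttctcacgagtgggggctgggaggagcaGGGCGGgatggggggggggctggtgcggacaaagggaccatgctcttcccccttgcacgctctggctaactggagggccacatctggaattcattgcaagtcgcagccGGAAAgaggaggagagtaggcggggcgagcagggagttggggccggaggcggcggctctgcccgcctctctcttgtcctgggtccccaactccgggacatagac

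Of the 10 genes 8 had an entry among the 33469 RefSeq promoters, and Lpar1 and Lpar2 had none. The motifs searched on both strands were the cyclic AMP and calcium response element TGACGTCA, the AP-1 site TGANTCA, the NFAT core GGAAA, the TEAD site GGAATG, the GC box GGGCGG, the CCAAT box CCAAT, and the SRF-binding CArG box. Of these motifs only the CArG box can contain another, the CCAAT box. The NFAT core and the TEAD site share the letters GGAA. In the 250 bases before S1pr3 there were 3 matches, all to the GC box, which 30.5% of all promoters held. The window of S1pr1 held 1 match, a CCAAT box on the opposite strand 86 to 90 bases before the start, present in 34.0% of promoters. S1pr2 had 1 GC box and 1 NFAT core, and the NFAT core was found in 56.9% of promoters. Neither the cyclic AMP element (1.59% of promoters), the AP-1 site (6.34%) nor the CArG box (1.5%) occurred in any of the 8 windows. The 3 printed windows were alike in base composition. Their GC content was 66.0% for S1pr3, 64.8% for S1pr1 and 66.4% for S1pr2, against a median of 51.2% over all promoters. They held 17, 14 and 15 CpG dinucleotides in the same order, beside a median of 5. The S1pr5 window, not printed, was richer still, with 69.2% GC, 24 CpG dinucleotides and 2 GC boxes. A TEAD site (12.1% of promoters) occurred in the windows of Lpar6 and Sphk1. The Lpar6 window held no CpG. These matches describe the letters of the windows only.

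S1pr3 encodes an S1P receptor that couples to Gi, Gq and G12/13 and is one of the main S1P receptors of astrocytes. Its only probe set gave a signal of 2770 in 5ppase and 7575 in control, a log2 ratio of -1.45. Among the 8261 compared genes it had the 36th lowest ratio. Of all compared genes 1.42% were at least 2-fold lower in 5ppase. In the brightest 20% of compared genes, to which S1pr3 belonged, 0.605% were at least 2-fold lower. S1pr3 has no second probe set on the array, so no repeat of this ratio within the arrays was available. The probe set it has is listed with an expressed sequence tag.

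S1pr1, a receptor that signals through Gi and is a target of the multiple sclerosis drug fingolimod, had signals of 521 in 5ppase and 1033 in control. The log2 ratio of -0.99 fell just short of 2-fold, and it was the 120th lowest of the compared genes. In its own 20% of genes by signal 1.15% were at least 2-fold lower. Under scaling to a common median it passed 2-fold, at -1.02. The S1pr1 difference rests on a probe set listed with an expressed sequence tag. The other S1pr1 probe set, listed with the RefSeq messenger RNA, gave 4.0 in 5ppase and 6.1 in control, under the floor on both arrays. That dim probe set has no usable ratio, and the files do not say which stretch of the transcript either one reads.

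S1pr2, which couples strongly to G12/13, gave 466 in 5ppase and 371 in control at its brighter probe set, a log2 ratio of 0.33. Its dimmer probe set gave 107 in 5ppase and 124.5 in control, with the opposite sign (-0.22). The probe sets of S1pr2 thus differed in direction, and both ratios were within 1.5-fold. S1pr5, known from oligodendrocytes and natural killer cells, gave a signal of 10 in 5ppase and 17.5 in control, under the floor on both arrays.

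Lpar1 encodes the most widely expressed of the LPA receptors, known from Schwann cells and oligodendrocytes as well as astrocytes, and couples to Gi, Gq and G12/13. Its brighter probe set gave 292 in 5ppase and 89.7 in control, a log2 ratio of 1.70, the 13th highest of the compared genes. The second probe set gave 135 in 5ppase and 66.4 in control, which is a log2 ratio of 1.02. Both probe sets therefore read higher in 5ppase, but the second was not bright enough to be compared and its control value lay just above the floor. At its control signal, Lpar1 could enter the comparison only with a 5ppase signal at least 2.32-fold higher, so its place among the compared genes already fixed a difference past 2-fold. In the dimmest 20% of compared genes, where Lpar1 lay, 3.21% were at least 2-fold higher in 5ppase, beside 1.5% of all compared genes.

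The other LPA receptors showed either small differences or dim signals. Lpar6, a P2Y-type LPA receptor that couples to G12/13, gave 1490 in 5ppase and 1318 in control (log2 ratio 0.18). Lpar4, its relative of the same P2Y branch, gave 105 in 5ppase and 80.9 in control, above the floor on both arrays but under the brightness limit (0.37). Lpar2, a receptor of the same Edg branch as Lpar1, gave 41.8 in 5ppase and 76.4 in control, so only the control value lay above the floor. Lpar3, the third Edg-type LPA receptor, gave 23.2 in 5ppase and 40.1 in control, both under the floor. Signals under the floor do not show that a transcript was missing, because no detection calls were used.

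**Figure D1:**
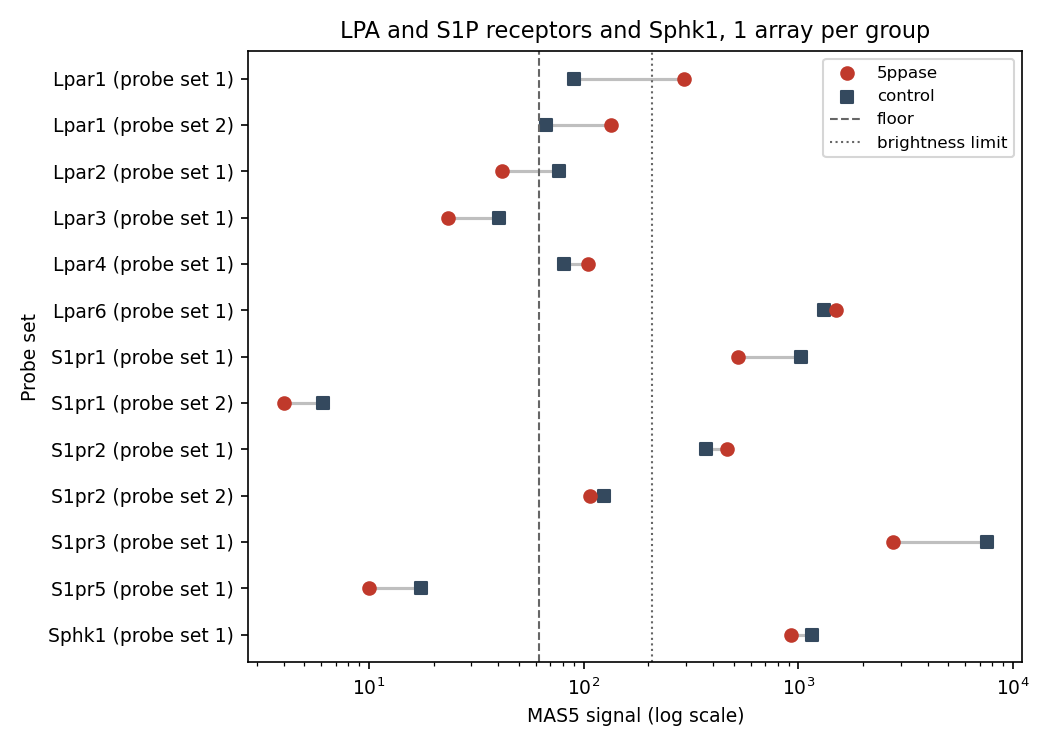
MAS5 signal (log scale) of the 13 probe sets of the 10 genes, with circles for the 5ppase array and squares for the control array, 1 array each. Probe set 1 is the brighter of a gene, the dashed line is the floor of 62.0 and the dotted line the brightness limit of 208. Signals are to be compared within a line only. S1pr3 read 2770 in 5ppase and 7575 in control, and both Lpar1 probe sets lay to the right of their control values.

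Sphk1, which phosphorylates sphingosine to S1P, gave 922 in 5ppase and 1152 in control, a log2 ratio of -0.32. Of the 10 genes 6 were compared on both arrays. Of these, Lpar1 was at least 2-fold higher, S1pr3 at least 2-fold lower, and 3 lay within 1.5-fold, as did 89.3% of all compared genes. Lpar1 was the only 1 of the 6 past 3-fold, which 0.642% of all compared genes passed. The filter admitted Lpar1 only at a ratio of at least 2.32-fold, so that share is no measure of how unusual it is. Its second probe set read 2.03-fold higher in 5ppase. The median log2 ratio of the 6 genes was -0.072, beside -0.017 over all compared genes, with 3 ratios above 0 and 3 below it. The median therefore hides differences that lay far apart, and nothing particular to these genes can be read from it.

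**Figure D2:**
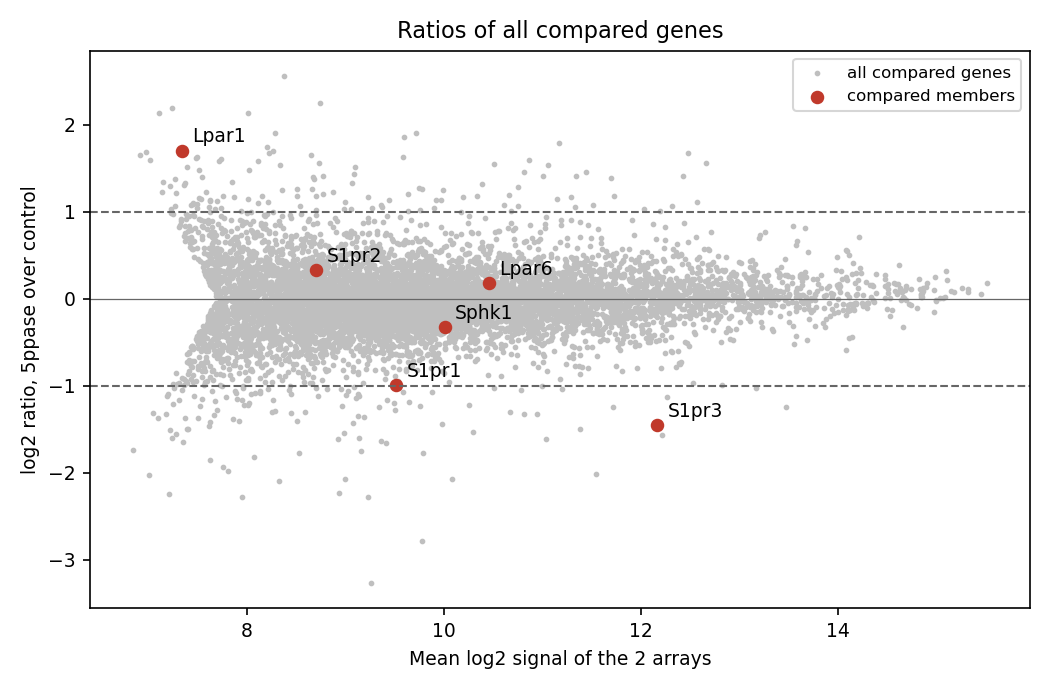
Log2 ratio of 5ppase over control against the mean log2 signal of both arrays for all 8261 compared genes (grey) and the 6 compared members (red), with dashed lines at 2-fold. Lpar1 (1.70) lies among dim genes, where the filter empties the region near a ratio of 0, whereas S1pr3 (-1.45) lies among bright genes, where few ratios pass 2-fold.

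Of 24 genes listed for LPA and S1P synthesis 19 were on the array and 14 were compared. The list includes enzymes of ceramide and sphingomyelin metabolism that form neither lipid themselves. None of the 14 was 1.5-fold apart, beside 10.7% of all compared genes. The median log2 ratio of the 14 was 0.11. The ceramidase Acer2 (67.4 in 5ppase and 17.9 in control) and the ceramide synthase Cers4 (90.0 in 5ppase and 39.2 in control), named after their values were seen, were above the floor in 5ppase only and too dim to compare. Enpp2, the secreted enzyme autotaxin that forms most extracellular LPA, gave 249 in 5ppase and 168 in control (0.57). Sphk2, the second sphingosine kinase, gave 382 in 5ppase and 504 in control (-0.40), and its other probe set was above the floor on the 5ppase array only. Degs1, the desaturase that forms ceramide, gave 9315 in 5ppase and 9220 in control (0.015). The acid sphingomyelinase Smpd1 gave 4694 in 5ppase and 3783 in control (0.31).

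Among 24 genes listed for breakdown and transport, 19 were on the array and 14 were compared. The list also holds Gpat4, an acyltransferase that forms LPA. Of the 14, 1 was at least 2-fold higher and none was at least 2-fold lower in 5ppase, beside 1.5% and 1.42% of all compared genes. The median log2 ratio of the 14 was -0.0029 and changed sign between scalings, with a range of -0.034 to 0.032. The lipid phosphate phosphatases, which remove LPA and S1P outside the cell, lay within 1.5-fold. Plpp1 gave 10655 in 5ppase and 8910 in control (0.26). Plpp3 gave 2313 in 5ppase and 2878 in control (-0.32), and Plpp2 gave 656 on both arrays. Plppr2, a phosphatase-related protein of this family, gave 307 in 5ppase and 149 in control (1.05), but its second probe set gave 125 in 5ppase and 124 in control. Abca1, a lipid exporter that can carry S1P out of astrocytes, gave 763 in 5ppase and 1479 in control (-0.95), while its second probe set gave 337 in 5ppase and 377 in control (-0.16). The S1P lyase Sgpl1, which degrades S1P irreversibly, gave 154 in 5ppase and 145 in control and stayed under the brightness limit. The S1P exporter Spns2 gave 89.1 in 5ppase and 31.0 in control, above the floor in 5ppase only. Sgpp1, Lpar5 and S1pr4 had no probe set with their symbol alone in the annotation used here.

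Other receptors for lysolipids and related lipids were dim on both arrays. Of 19 such genes 6 were on the array, and none was compared. The 4 under the floor on both arrays were Gpr4, Gpr34, P2ry10 and Cnr2, named after their values were seen.

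Among 10 compared genes of receptor trafficking and G protein shut-off, of 16 on the array, the only one past 1.5-fold was Rgs2, which speeds the shut-off of Gq. At least 1.5-fold lower signals were found for 5.46% of all compared genes. Rgs2 gave 378 in 5ppase and 703 in control (-0.89), and its second probe set gave 124 in 5ppase and 310 in control (-1.32).

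Genes of the SRF, YAP and early response pathways that LPA and S1P can engage differed in both directions. Of 32 genes 28 were on the array and 26 were compared, of which 2 were at least 2-fold higher and 1 was at least 2-fold lower in 5ppase, beside 1.5% and 1.42% of all compared genes. At 1.5-fold 4 were higher and 6 lower, beside 5.25% and 5.46% of all compared genes. The prostaglandin synthase Ptgs2 gave 852 in 5ppase and 339 in control (1.33), and the cytokine Il6 gave 2499 in 5ppase and 1194 in control (1.07). The early response gene Fosb gave 118 in 5ppase and 326 in control (-1.46). Fos, a subunit of AP-1, gave 4238 in 5ppase and 8260 in control (-0.96), with the opposite sign at its dim second probe set (0.82). The other 4 genes at least 1.5-fold lower were the early response genes Ier2 (-0.78), Junb (-0.77), Egr2 (-0.72) and Egr1 (-0.61), and the other 2 at least 1.5-fold higher were the YAP target Ankrd1 (0.81, and 0.45 at its second probe set) and the focal adhesion protein Vcl (0.69, and 0.45). The YAP targets Ccn2 (0.079) and Ccn1 (0.22) lay within 1.5-fold. These 8 genes were named after their values were seen. The median of the 26 genes was 0.044 and ranged from -0.015 to 0.044 over the scalings.

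**Figure D3:**
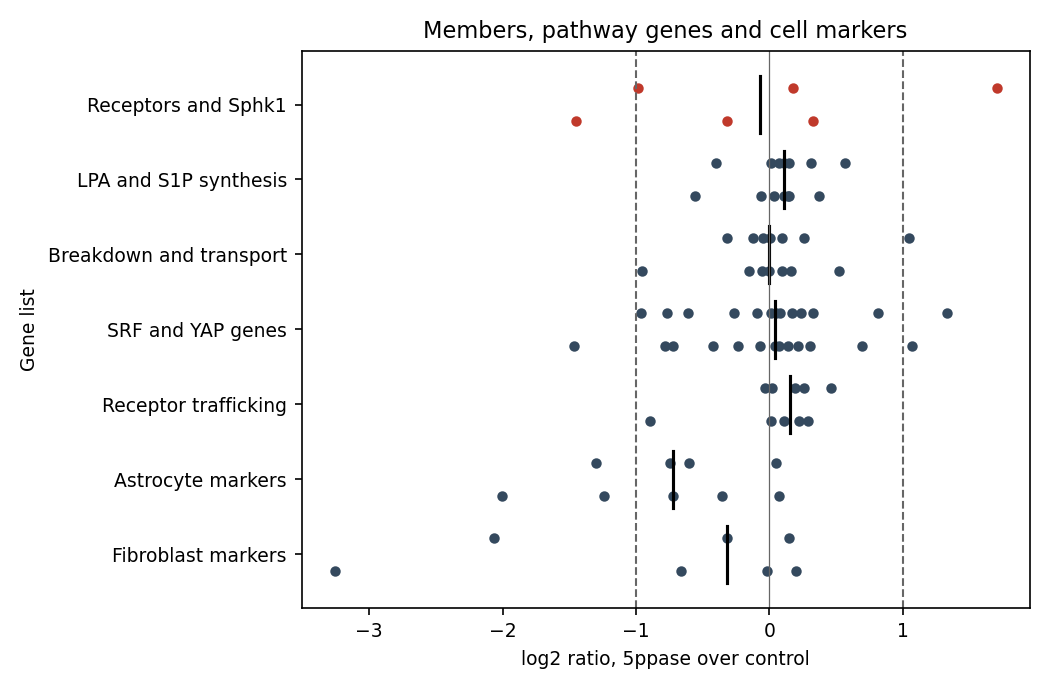
Log2 ratio of 5ppase over control for each compared gene of the receptor set (red) and of other gene lists (dark points). Points are spread vertically for legibility, vertical bars mark list medians, and dashed lines mark 2-fold. The pathway lists shown have medians of -0.0029 to 0.15, and the astrocyte marker list has a median of -0.73.

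The cell type label was checked against marker genes. Of 13 astrocyte markers on the array 9 were compared, with a median log2 ratio of -0.73. Of these, 3 were at least 2-fold lower and none was at least 2-fold higher in 5ppase, beside 1.42% and 1.5% of all compared genes. The summed signal of the 13 markers was 33957 in 5ppase and 56017 in control. Gfap, the astrocyte filament protein, gave 7408 in 5ppase and 17525 in control (-1.24). The markers Slc1a2 and Gjb6 were under the floor on both arrays, and Aqp4 was above it in control only. Of the 9 compared markers 7 had a ratio below 0 and 2 above it. S100b gave 3611 in 5ppase and 3483 in control (0.052). Gja1 gave 7656 in 5ppase and 7282 in control (0.072, and 1.04 at its second probe set). The ratios of S1pr3 and S1pr1 thus had the direction of most astrocyte markers but not all, and the part of these markers in the receptor differences was not tested. In bulk RNA, fewer cells of a type and less RNA per cell cannot be told apart.

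Markers of other cells that carry these receptors were mostly dim. Of 15 endothelial and pericyte markers on the array, 11 were under the floor on both arrays, Pecam1 and Cldn5 among them, with summed signals of 2183 in 5ppase and 1742 in control. The brightest of the list was the pericyte marker Pdgfrb, at 992 in 5ppase and 1097 in control (-0.15, and 0.72 at its second probe set). Of 14 oligodendrocyte lineage markers 8 were under the floor on both arrays, including Mog, Mag, Sox10 and Olig2. Their summed signal was 2307 in 5ppase and 4032 in control, led in control by Cldn11 (47.2 in 5ppase and 1371 in control). Cspg4, a marker in both this list and that of pericytes, went the other way, at 630 in 5ppase and 262 in control (1.27). Of 12 microglial markers 8 lay under the floor in both cultures, and the summed signal of 2624 in 5ppase and 1354 in control came mostly from Tmem119 (2273 in 5ppase and 1078 in control). Of 14 neuron markers 8 likewise lay under the floor, and the summed signal of 13336 in 5ppase and 6872 in control came mostly from Stmn2 (11065 in 5ppase and 3766 in control). The 4 compared neuron markers went both ways, with Stmn2 (1.55) and Tubb3 (1.72) higher and Gad1 (-1.24) and Map2 (-0.52) lower in 5ppase. Fibroblast and meningeal markers were mixed, with 5 of 14 under the floor on both arrays but Col1a1 at 32414 in 5ppase and 32792 in control. Of the 7 compared, 2 were at least 2-fold lower and none was at least 2-fold higher in 5ppase, beside 1.42% and 1.5% of all compared genes. The 2 lower markers were Mgp, at 199 in 5ppase and 1902 in control (-3.26), and Igfbp5, at 530 in 5ppase and 2218 in control (-2.06). The summed signal of the list was 96720 in 5ppase and 102561 in control. The part of these cell types in the receptor ratios was not tested.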

How the data were processed

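RNA of 1 5ppase and 1 control culture was hybridised to 1 array each, and samples were grouped by title. The deposited intensities are linear probe set signals that the authors computed with MAS5, per the submitters' processing notes, with settings not stated in the sources used. Both arrays had a trimmed mean of 500.2 (2% removed at each end) and were set to a common one, which leaves signal-dependent trends in place. No sample column was left unused (0).

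Of 31099 probe sets 20832 carried 1 gene symbol, 436 several and 9831 none in the platform annotation. A gene was represented by its brightest probe set. No test was run, since each group had 1 array. A gene counted as called at 2-fold or more, among the 8261 compared genes. The procedure (Python 3.11.15, statsmodels 0.14.6 for loess) was checked on simulated data. The changed genes there were drawn only from genes far above the brightness limit. That check does not show how differences are recovered in genes as dim as Lpar1, S1pr1 or S1pr2. Alternatives covered scaling, floor, filter, probe set and fold.

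The 10 members, the 6 pathway lists and the 6 marker lists were chosen with earlier results of these data known; 1 pathway list is not reported here. All members were named, with, per reported pathway list, up to 4 genes past 1.5-fold or else the 2 brightest, and 10 fixed pathway genes; marker genes and other genes marked in the text were chosen after their values were seen.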

Additional observations from a re-analysis of the deposited data

How the results depend on the processing

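Log2 ratios were recomputed for the 7 members above the floor on both arrays (Lpar1, Lpar4, Lpar6, S1pr1, S1pr2, S1pr3 and Sphk1). They moved by less than the probe set SD of 0.26 in 58 of the recomputed values and by more in 4. All 4 were for Lpar1 or S1pr2 under another choice of probe set. Many of the 58 could not move, because a new floor or filter leaves a ratio as it is. The deposited values already had near-equal trimmed means, and a gene with a single probe set allows no other choice. The 58 are therefore no measure of robustness. S1pr3 ran from -1.496 to -1.449 over 9 alternatives and S1pr1 from -1.02 to -0.95 over 8. Lpar1 ran from 1.02 (second probe set) to 1.71 and was 1.36 with the mean of its probe sets. S1pr2 ran from -0.22 to 0.36. With the floor at the 60th percentile and the 75th required of the brighter array, 4 members were left, with a median of -0.65 and 1 of them 2-fold apart, because Lpar1 and S1pr2 no longer qualified. With a pseudocount of 6.4 and no filter the median of all 10 members was -0.43, beside -0.0021 over all genes, of which 14.7% were then past 2-fold. With the mean of probe sets 4 members were compared, S1pr1 and Lpar1 no longer among them, and 1 was 2-fold apart, and at 3-fold 1 member remained, Lpar1. The second brightest probe sets left no member compared, so they gave no count or median. No paired analysis was possible because each group has 1 array, and for the same reason no replicate could be left out. Dim signals limit Lpar2, Lpar3, Lpar4 and S1pr5, for which these arrays show only that signal lay near or under the floor.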
